A study of Arabidopsis thaliana with 6 samples.

Results

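Plant cells are held in shape by a wall of cellulose fibres tied together by xyloglucan and other polysaccharides. Expansins loosen that wall without cutting it, xyloglucan endotransglucosylase/hydrolases (XTH) cut and rejoin xyloglucan chains, and glycoside hydrolases of the GH9 family are endo-1,4-beta-glucanases. Cellulose synthase-like (CSL) enzymes build wall polysaccharide backbones in the Golgi, and many proteins of the trichome birefringence-like (TBL) family add acetyl groups to wall polysaccharides. Vascular differentiation brings many of these families into use, since a xylem or phloem cell divides, enlarges and rebuilds its wall.

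The genes described here are those of 1 probe set or more whose symbol opens with EXPA, EXPB, EXLA or EXLB (expansins and expansin-like proteins), XTH, GH9, CSL, TBL, GAUT, GATL or FLA, read only from probe sets that list exactly 1 gene. This rule found 81 probe sets for 80 genes, of 16722 probe sets with 1 gene and 38310 probe sets in all. There were 13 EXPA, 5 EXPB, 3 EXLA, 1 EXLB, 9 XTH, 19 GH9, 8 CSL and 22 TBL genes, and no named probe set for GAUT, GATL or FLA. One further TBL gene is not analysed here, and 2 TBL probe sets that list several genes were not used. Only EXPA20 had 2 probe sets, and the one of higher mean signal stands for it.

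RNA came from whole wild-type Arabidopsis thaliana cotyledons put through VISUAL, a tissue culture that turns cotyledon cells into vascular cells. The series asks how the kind of sugar in the medium bears on that change. Cotyledons of 6-day-old seedlings received an induction medium with 5% sucrose or 5% glucose, and each sugar was sampled at 0, 24 and 48 h, with 1 array for each sugar and time. All groups share the genotype and a medium that holds the auxin 2,4-D at 1.25 mg/L, the cytokinin kinetin at 0.25 mg/L and 10 µM bikinin, which blocks the GSK3-like kinases that restrain brassinosteroid signalling. No array cultured without these 3 agents was analysed here, and 0 h is the start of induction. Their effects, the sugar's and that of time in culture therefore cannot be told apart in a comparison with 0 h. Times are those of the sample titles; a separate time label differs on 5 of the 6 arrays, giving 34 h for glucose 24 h and 72 h for glucose 48 h and for all 3 sucrose arrays.

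Values are log2 signals scaled to a common trimmed mean, and signals below 4.90, the 40th percentile of all arrays pooled, were set to that floor before any comparison. A signal is given here as scaled but before the floor. Differences between times are means over both sugars, 2 arrays against 2, from a limma fit across 25826 probe sets, with Benjamini-Hochberg adjusted p-values and a threshold of 0.05. Where every array of a group lay at the floor, the fold is a bound and is written "at least". Signals of different genes were not set against each other, since probe sets respond differently to the same amount of RNA. In whole cotyledons, fewer cells of a type and less RNA per cell cannot be told apart.

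The arrays' deposited median signals lay between 5.33 and 5.92, and between 58.5% and 60.9% of probe sets were above the floor. Of 10 mesophyll marker genes, 5 had a probe set, and all 5 were lower at both times (median log2 difference -4.41 at 24 h, -5.06 at 48 h). Their summed linear signal was 351 (sucrose) and 966 (glucose) at 24 h, 327 and 714 at 48 h, and 10902 and 11164 at 0 h. IRX15, the 1 xylem vessel marker of 10 with a probe set, was above the floor only at 48 h, at 5.06 in sucrose and 6.86 in glucose. OPS, the 1 phloem marker of 7, lay at the floor in both 0 h arrays and rose at least 3.78-fold by 24 h and at least 5.08-fold by 48 h (adjusted p = 0.022 and 0.012). FAMA, the 1 guard cell marker of 3, fell by 1.15 on the log2 scale at 48 h (adjusted p = 0.034), and none of the 5 procambium or 5 epidermis markers had a probe set. Whether these marker changes reflect cell makeup, and what part that has in the wall gene results, was not tested.

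Of the 80 genes, 56 passed the filter of a signal above the floor on at least 2 arrays: 10 EXPA, 4 EXPB, 2 EXLA, EXLB1, 7 XTH, 11 GH9, 5 CSL and 16 TBL genes. The other 24 were not tested, 18 of them because they lay below the floor on all 6 arrays. Among the untested genes were EXPA18, a root hair expansin, and 8 of the 19 GH9 genes. Of the 56, 29 were above the floor on all 6 arrays and 27 were below it on at least 1, so a test of those 27 compares partly with the floor.

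Wall gene signals moved in both directions in culture, and the most changed genes were spread over the families. At 24 h against 0 h, 13 of the 56 tested genes rose and 8 fell. The background was 24.2% of all tested probe sets called higher and 19.8% called lower, against 23.2% and 14.3% of these genes. At 48 h against 0 h, 16 rose and 9 fell, which is 28.6% and 16.1% of them, against a background of 22.1% higher and 19.9% lower. The median log2 difference was 0.11 at 24 h and 0.14 at 48 h, against 0.10 and 0.13 over all tested probe sets. As a set, then, these genes stood near the background in both directions, and the account below is of single genes and prefixes. The 24 h and 48 h comparisons share their 0 h arrays, so a gene called in both was measured against the same pair.

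The expansins EXPA4, EXPA15 and EXPB3 rose at both times, each with both cultured sugars above 0 h. EXPA4 (AT2G39700) gave 5.74, 9.28 and 10.40 at 0, 24 and 48 h in sucrose, and 5.83, 10.09 and 10.02 in glucose. All 4 cultured arrays stood far above both 0 h arrays. The difference was 3.90 ± 0.33 at 24 h (log2, SE, 14.9-fold, adjusted p = 0.0025) and 4.43 ± 0.33 at 48 h (21.5-fold, adjusted p = 0.0014).

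EXPA15 (AT2G03090), another alpha-expansin, gave 4.12, 6.53 and 8.12 in sucrose and 5.00, 8.18 and 8.68 in glucose at 0, 24 and 48 h. The sucrose 0 h array lay below the floor, and no cultured array reached down to the 0 h pair. Its difference was 2.41 ± 0.37 at 24 h (adjusted p = 0.0071) and 3.46 ± 0.37 at 48 h (adjusted p = 0.0028). The beta-expansin EXPB3 (AT4G28250) gave 5.38, 7.94 and 8.88 in sucrose and 5.37, 9.88 and 8.66 in glucose, so sucrose was lower at 24 h and level with glucose at 48 h. It rose by 3.53 ± 0.53 at 24 h (adjusted p = 0.0070) and by 3.39 ± 0.53 at 48 h (adjusted p = 0.0073).

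EXPA8 (AT2G40610) differed from these 3 expansins in that its rise lay almost wholly in the glucose arrays. Its signal was 6.12, 6.54 and 6.34 at 0, 24 and 48 h in sucrose, and 6.17, 8.95 and 8.61 in glucose. The sucrose series stayed within 0.42 of its own 0 h array, while both cultured glucose arrays stood more than 2 log2 units above theirs. The mean over both sugars was 1.60 ± 0.27 higher at 24 h (adjusted p = 0.0094) and 1.33 ± 0.27 higher at 48 h (adjusted p = 0.015). Neither passed in a fit with sugar as a block over all 6 arrays, where the SE was 0.62 (adjusted p = 0.082 and 0.14).

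Other expansins were lower in culture. EXPA16 (AT3G55500) gave 7.98, 7.10 and 5.41 in sucrose and 8.58, 6.44 and 5.38 in glucose, lower at 48 h than at 24 h in both sugars. It fell by 1.51 ± 0.36 at 24 h (adjusted p = 0.024) and fell by 2.88 ± 0.36 at 48 h (adjusted p = 0.0041). EXPA9 (AT5G02260) fell at 48 h only among the 2 comparisons, by 1.43 ± 0.41 (adjusted p = 0.042), with 5.34 in sucrose and 5.64 in glucose at 48 h, against 6.45 and 7.41 at 0 h. At 24 h it had been 6.99 in sucrose and 7.66 in glucose, each a little above its 0 h array, and that difference did not pass the test (0.40 ± 0.41, adjusted p = 0.46).

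EXPA20 (AT4G38210) rests on which of its probe sets is read. The brighter one gave 9.12, 7.42 and 7.77 in sucrose and 9.71, 7.55 and 6.91 in glucose, and fell by 1.93 ± 0.36 at 24 h (adjusted p = 0.012) and fell by 2.07 ± 0.36 at 48 h (adjusted p = 0.0095). The second gave 6.61, 6.41 and 7.28 in sucrose and 6.67, 7.19 and 6.83 in glucose, with a 24 h difference of 0.16 ± 0.39 (adjusted p = 0.75). With the mean of the pair the differences were -0.88 and -0.83, and neither passed the test (adjusted p = 0.10 and 0.12).

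The remaining expansins changed little or lay near the floor. EXPB1 (AT2G20750), a beta-expansin, showed no change in the mean over both sugars (-0.03 ± 0.33 at 24 h, adjusted p = 0.96, and 0.40 ± 0.33 at 48 h, adjusted p = 0.38) while its sugars stood apart, as described with the sugar comparison. EXPB2 and EXPB5 had differences of -0.84 and -0.47 at 24 h that did not pass the test (adjusted p = 0.12 and 0.081). EXPA25 was above the floor on all arrays, at 6.39 to 7.19, with a 24 h difference of -0.62 that did not pass (adjusted p = 0.13). EXPA7, known as a root hair expansin, was above the floor on 2 arrays only, at 5.26 in sucrose 0 h and 5.05 in glucose 48 h.

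The expansin-like gene EXLA1 (AT3G45970) gave 8.73, 6.54 and 6.60 in sucrose and 7.99, 6.39 and 8.54 in glucose. Both 24 h arrays lay below both 0 h arrays, but at 48 h the glucose array was back among the 0 h values. It fell by 1.90 ± 0.57 at 24 h (adjusted p = 0.045), and the 48 h difference of -0.79 ± 0.57 did not pass (adjusted p = 0.31). The 24 h call was lost unscaled (adjusted p = 0.065), with a floor at the 50th percentile (0.051) without the intensity trend (0.053) and with sugar as a block (0.058). EXLA2 stayed between 5.77 and 6.87 on all arrays with neither difference past the test, and EXLB1 was above the floor on the 0 h arrays only, at 5.30 and 4.95.

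**Figure D1:**
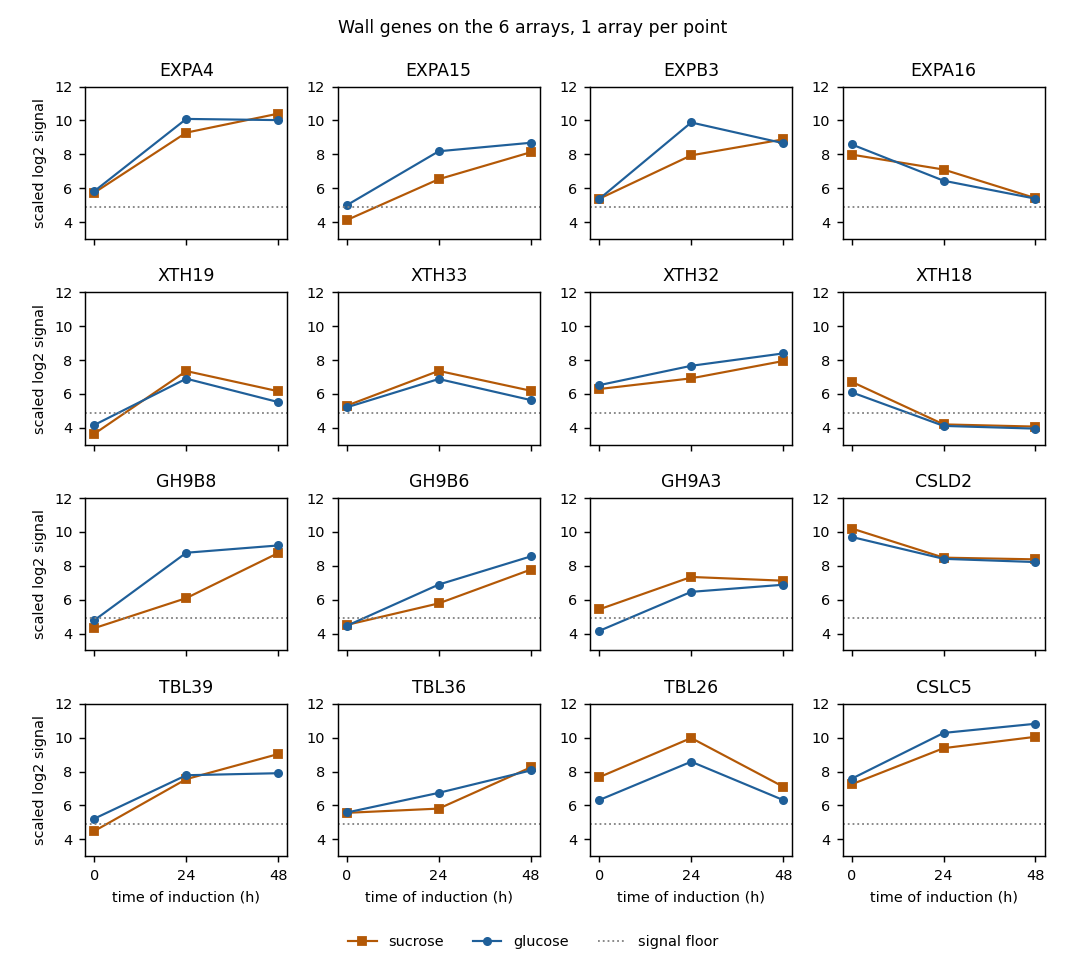
Scaled log2 signal (vertical axis) at 0, 24 and 48 h of induction (horizontal axis) of 16 wall genes, with the sucrose arrays as squares, the glucose arrays as circles and the signal floor dotted; each point is 1 array, so no error bar is drawn. EXPA4 stands between 9.28 and 10.40 on the cultured arrays, against 5.74 and 5.83 at 0 h, while EXPA16 and CSLD2 lie below their 0 h arrays at both later times.

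Among the XTH genes, XTH19 and XTH33 were highest at 24 h. XTH19 (AT4G30290), linked with cell proliferation in wounded stems, gave 3.65, 7.35 and 6.16 in sucrose and 4.17, 6.90 and 5.52 in glucose. Both 0 h arrays were below the floor, and all 4 cultured arrays were above it. It rose at least 4.68-fold at 24 h (2.23 ± 0.24, adjusted p = 0.0038) and at least 1.92-fold at 48 h (0.94 ± 0.24, adjusted p = 0.030). XTH33 (AT1G10550) gave 5.31, 7.36 and 6.19 in sucrose and 5.21, 6.88 and 5.64 in glucose. It rose by 1.86 ± 0.26 at 24 h (adjusted p = 0.0058), and the 48 h difference of 0.65 ± 0.26 did not pass (adjusted p = 0.094). In both genes 48 h was lower than 24 h in each sugar (log2 difference -1.29 for XTH19 and -1.20 for XTH33), and neither difference passed the test (adjusted p = 0.11 and 0.13).

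XTH32 (AT2G36870) was higher at each later time, with 6.29, 6.92 and 7.94 in sucrose and 6.52, 7.66 and 8.39 in glucose. At 24 h the difference of 0.88 ± 0.28 did not pass (adjusted p = 0.051), and at 48 h it rose by 1.76 ± 0.28 (adjusted p = 0.0074). XTH18 (AT4G30280) was lower in culture: it gave 6.71, 4.2 and 4.07 in sucrose and 6.09, 4.11 and 3.95 in glucose, with all 4 cultured arrays below the floor. Its fall was at least 2.83-fold at each time (adjusted p = 0.0097 and 0.0094). XTH18 and XTH19 are neighbours on chromosome 4 with no other coding gene between them in the RefSeq gene table. XTH16 and XTH29 had no time difference past the test, with differences of 0.49 and 0.12 at 24 h (adjusted p = 0.33 and 0.88).

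In the GH9 family 3 of 11 tested genes rose at 24 h (27.3%, against 24.2% of all probe sets) and 4 at 48 h (36.4%, against 22.1%), and 1 fell at each time (9.09%, against 19.8% and 19.9%). GH9B8 (AT2G32990), a class B glucanase, which lacks the membrane anchor of class A, gave 4.32, 6.09 and 8.75 in sucrose and 4.79, 8.77 and 9.20 in glucose. Both 0 h arrays were below the floor, and the sucrose array at 24 h stood between them and the other cultured arrays. It rose at least 5.78-fold at 24 h (2.53 ± 0.56, adjusted p = 0.019) and at least 16.9-fold at 48 h (4.08 ± 0.56, adjusted p = 0.0051).

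GH9B6 (AT1G23210), of the same class, gave 4.51, 5.78 and 7.77 in sucrose and 4.46, 6.89 and 8.55 in glucose. It rose at least 2.71-fold at 24 h (1.44 ± 0.28, adjusted p = 0.014) and at least 9.58-fold at 48 h (3.26 ± 0.28, adjusted p = 0.0018). In each sugar the 48 h array stood above the 24 h array, and of all 56 tested genes this one had the lowest adjusted p for 48 h against 24 h (1.82 ± 0.28, adjusted p = 0.097), which did not pass. GH9A3 (AT4G24260, also called KOR3), a membrane-anchored class A glucanase of the KORRIGAN type, gave 5.43, 7.34 and 7.12 in sucrose and 4.16, 6.46 and 6.88 in glucose. It rose by 1.74 ± 0.35 at 24 h (adjusted p = 0.014) and by 1.84 ± 0.35 at 48 h (adjusted p = 0.012), with no overlap between cultured and 0 h arrays.

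GH9B7 rose at 48 h by 0.92 ± 0.21 (adjusted p = 0.020), with 10.21 in sucrose and 10.59 in glucose at 48 h, against 9.28 and 9.67 at 0 h. GH9B13 (AT4G02290) gave 4.66, 5.19 and 7.46 in sucrose and 5.62, 7.95 and 7.32 in glucose. Neither of its differences passed the test (1.31 ± 0.72 at 24 h, adjusted p = 0.19; 2.13 ± 0.72 at 48 h, adjusted p = 0.066), and the sugars stood apart at 24 h. GH9C2 (AT1G64390), a class C enzyme with a carbohydrate-binding module, gave 10.67, 11.12 and 12.48 in sucrose and 11.51, 12.65 and 12.46 in glucose, and likewise did not pass (adjusted p = 0.20 and 0.057).

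GH9B10 (AT2G44550) was the 1 GH9 gene that fell, with 5.85 on both 0 h arrays and 4.30 to 4.98 on the cultured ones. It was at least 1.94-fold lower at 24 h (adjusted p = 0.0083) and fell by 0.91 ± 0.15 at 48 h (adjusted p = 0.0090). GH9B9, GH9B11 and GH9B12, its neighbours on chromosome 2, were below the floor on all 6 arrays. Over the 11 tested GH9 genes, 9 had a positive difference for 48 h against 24 h and 0 a negative one, with a median of 0.35, and none passed the test. The others were at the floor on all 4 arrays. Over all tested probe sets 43% of these differences were positive and 52.4% negative. Each is a mean over both sugars. Between single arrays, 48 h was lower than 24 h for GH9A3 in sucrose (-0.21) and for GH9B13 (-0.63) and GH9C2 (-0.18) in glucose. In GH9B10 and GH9B18 the glucose 48 h array was the only cultured array above the floor.

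Of 5 tested CSL genes 1 rose at each time (20%, against 24.2% of all probe sets at 24 h and 22.1% at 48 h). Likewise 1 fell at each time (20%, against 19.8% and 19.9%). CSLC5 (AT4G31590), of the CSLC group that makes the glucan backbone of xyloglucan, gave 7.25, 9.38 and 10.05 in sucrose and 7.58, 10.28 and 10.82 in glucose. It rose by 2.42 ± 0.20 at 24 h (adjusted p = 0.0026) and by 3.02 ± 0.20 at 48 h (adjusted p = 0.0012). CSLD2 (AT5G16910), which takes part in the tip growth of root hairs, gave 10.20, 8.48 and 8.38 in sucrose and 9.70, 8.41 and 8.22 in glucose, with all 4 cultured arrays within 0.26 of each other. It fell by 1.50 ± 0.24 at 24 h (adjusted p = 0.0083) and by 1.65 ± 0.24 at 48 h (adjusted p = 0.0062).

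The other tested CSLC genes did not move with CSLC5 by this test. CSLC04 (AT3G28180) gave 11.16, 11.44 and 10.55 in sucrose and 10.64, 11.12 and 10.14 in glucose, with differences of 0.38 ± 0.22 at 24 h and -0.56 ± 0.22 at 48 h (adjusted p = 0.21 and 0.094). CSLC6 stayed between 8.07 and 8.81 (adjusted p = 0.82 and 0.80). CSLC12 was below the floor on the glucose 48 h array and had differences of 0.25 and -0.01 (adjusted p = 0.43 and 0.98). CSLA01, CSLA03 and CSLB03 were not tested; CSLA genes are known as mannan synthases.

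Of 16 tested TBL genes 3 rose at 24 h (18.8%, against 24.2% of all probe sets) and 5 at 48 h (31.2%, against 22.1%). At 24 h 1 fell (6.25%, against 19.8%) and at 48 h 2 fell (12.5%, against 19.9%). TBL39 (AT2G42570) gave 4.49, 7.55 and 9.03 in sucrose and 5.22, 7.78 and 7.90 in glucose, and rose by 2.61 ± 0.41 at 24 h (adjusted p = 0.0081) and by 3.41 ± 0.41 at 48 h (adjusted p = 0.0038). TBL24 (AT4G23790), of the group TBL23 to TBL26 known for mannan acetylation, gave 5.91, 6.56 and 7.69 in sucrose and 5.48, 7.08 and 8.39 in glucose. Its rise was 1.13 ± 0.31 at 24 h (adjusted p = 0.035) and 2.34 ± 0.31 at 48 h (adjusted p = 0.0046).

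TBL26 (AT4G01080), of the same group, was high at 24 h alone. It gave 7.67, 9.98 and 7.11 in sucrose and 6.32, 8.58 and 6.32 in glucose. It rose by 2.29 ± 0.50 at 24 h (adjusted p = 0.018), and at 48 h it was at or below its 0 h array in each sugar (-0.28 ± 0.50, adjusted p = 0.68). The difference of 48 h against 24 h was -2.57 ± 0.50 and did not pass (adjusted p = 0.12). Sucrose was 1.35 above glucose at 0 h already and 1.40 above it at 24 h.

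Rises at 48 h and not at 24 h were those of TBL34, TBL36 and TBL45; the difference between the times did not pass for any of them (adjusted p = 0.10, 0.12 and 0.16). TBL36 (AT3G54260) gave 5.56, 5.81 and 8.24 in sucrose and 5.58, 6.74 and 8.06 in glucose, with a 48 h difference of 2.58 ± 0.37 (adjusted p = 0.0058). TBL34 (AT2G38320), known for xylan acetylation, gave 5.23, 4.74 and 6.35 in sucrose and 5.40, 6.25 and 8.21 in glucose, with a 48 h difference of 1.97 ± 0.28 (adjusted p = 0.0057). TBL45 gave 8.81 in sucrose and 10.33 in glucose at 48 h, against 8.05 and 8.09 at 0 h (1.50 ± 0.28, adjusted p = 0.011). TBL37 fell at 48 h by 1.30 ± 0.26 (adjusted p = 0.014), with 8.33 and 8.40 at 48 h, against 9.57 and 9.77 at 0 h. Of the other TBL genes known for xylan acetylation, TBL28 and TBL32 had no difference past the test, and TBL30 and TBL31 were not tested.

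**Figure D2:**
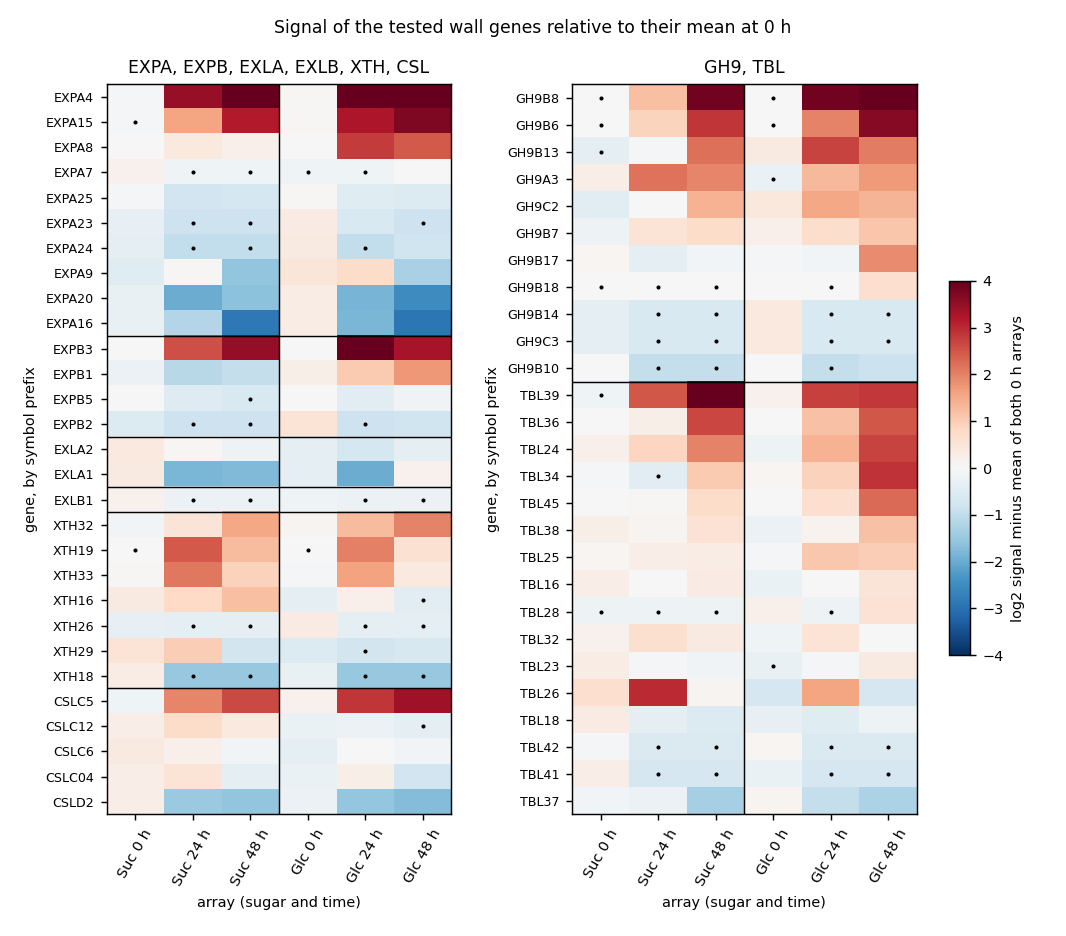
Log2 signal of the 56 tested wall genes on the 6 arrays as a difference from the mean of both 0 h arrays (colour, red for higher and blue for lower, ending at 4 log2 units either way), 1 row per gene grouped by symbol prefix and 1 column per array; a dot marks a signal below the floor of 4.90, which is set to it. The rows of EXPA4, EXPB3, CSLC5 and TBL39 are red on all 4 cultured arrays, EXPA20, EXPA16, XTH18 and CSLD2 are blue on all 4, and EXPA8 is clearly red on the glucose arrays only.

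No tested wall gene passed the comparison of 48 h with 24 h, in which 0% of all probe sets were called higher and 0% lower. At an unadjusted p under 0.05 there were 17 of the 56, and 4872 of the 25826 probe sets. Between single arrays, with no test, 11 of 42 wall genes were at least 2-fold higher and 7 at least 2-fold lower at 48 h than at 24 h in sucrose, where the background was 5.79% higher and 4.66% lower. In glucose 9 of 52 were higher and 6 lower, against a background of 8.30% and 12.1%.

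Within each sugar, measured against its own 0 h array, at least 2-fold changes were counted with no test. At 24 h, 10 of 55 compared wall genes were higher and 4 lower in sucrose (background 21.8% and 17.2%), and 18 of 57 were higher and 9 lower in glucose (background 24.6% and 18.3%). At 48 h, 15 of 55 were higher and 8 lower in sucrose (background 22.8% and 19.2%), and 20 of 61 were higher and 10 lower in glucose (background 20.0% and 18.2%). Of the wall genes above the floor on all 4 arrays compared, 28 of 32 moved the same way in both sugars at 24 h (87.5%) and 24 of 31 at 48 h (77.4%). The same shares over all probe sets were 85.9% and 82.4%.

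At 24 h several expansin and GH9 genes were at least 2-fold lower in sucrose than in glucose, with no test passed. No wall gene passed the test of sucrose against glucose over the cultured arrays, nor did any probe set (0% higher and 0% lower). At an unadjusted p under 0.05 there were 12 of the 56 wall genes, and 2613 of all probe sets. A second fit that tested each time alone called none at 24 h or at 48 h either, and none for the change between them (0% of all probe sets in each direction in each). There, 11, 9 and 9 wall genes had an unadjusted p under 0.05, against 2955, 4472 and 3473 of all probe sets. The sugar differences below are therefore values of single arrays or means over 2, with none past the threshold.

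At 24 h, 2 of 43 compared wall genes were at least 2-fold higher and 9 at least 2-fold lower in sucrose than in glucose, where 3.48% of all probe sets were higher and 3.58% lower. The higher ones were XTH29 and TBL26. The lower ones were EXPA8, EXPA15, EXPB1, EXPB3, GH9B6, GH9B8, GH9B13, GH9C2 and TBL34, or 4 of 13 compared expansins and 4 of 7 compared GH9 genes. At 0 h, 2 of 56 were higher and 1 lower, with a background of 4.88% and 1.66%. At 48 h, 2 of 51 were higher (XTH16 and TBL39) and 7 lower (EXPA8, EXPB1, EXLA1, GH9B17, TBL31, TBL34 and TBL45), with a background of 8.55% and 6.33%.

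In EXPA8, EXPB1 and TBL34 the sucrose arrays were at least 2-fold lower at both times. GH9B6 was lower in sucrose at both times too, by less than 2-fold at 48 h (-1.1 at 24 h and -0.78 at 48 h). The sucrose minus glucose value of EXPA8 was -0.05 at 0 h, -2.41 at 24 h and -2.27 at 48 h (cultured mean -2.34 ± 0.27, unadjusted p = 0.00026, adjusted p = 0.20). EXPB1 gave 6.44, 5.56 and 5.71 in sucrose and 6.88, 7.70 and 8.40 in glucose, so that cultured sucrose arrays lay below 0 h and cultured glucose arrays above it (cultured mean -2.41 ± 0.33, adjusted p = 0.23). TBL34 had a cultured mean of -1.61 ± 0.28 (adjusted p = 0.28). Its sucrose 24 h array lay below the floor, so the gap was at least that large.

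In other genes the 24 h gap was small or gone at 48 h. The sucrose minus glucose value of GH9B8 was -2.68 at 24 h and -0.45 at 48 h, that of GH9B13 was -2.76 and 0.14, and that of EXPB3 was -1.95 and 0.23. GH9C2 likewise had -1.53 and 0.01, and EXPA15 had -1.65 and -0.56. Already at 0 h the value was -0.84 for GH9C2 and -0.72 for GH9B13, against 0.01 for EXPB3 and -0.1 for EXPA15. The 0 h values of GH9B13 and EXPA15 are bounds, since their sucrose 0 h arrays lay below the floor. The change of the sugar difference was 2.23 for GH9B8 and 2.17 for EXPB3, and it did not pass for any of the 5. Each cultured array is a group of 1 in that fit, whose measured spread comes from the 0 h pair alone. For GH9B8 both 0 h arrays lay below the floor, so its own arrays gave no spread. In each of these 5 genes the sucrose array of 48 h was above that of 24 h.

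A sugar gap that opened at 48 h was seen in GH9B17, EXLA1 and TBL45. GH9B17 (AT4G39000) gave 5.65, 5.19 and 5.46 in sucrose and 5.48, 5.44 and 7.47 in glucose, so the glucose 48 h array alone stood apart. TBL45 had a sucrose minus glucose value of -0.61 at 24 h and -1.52 at 48 h. On the other side, XTH16 (AT3G23730) gave 5.71, 6.13 and 6.55 in sucrose and 4.97, 5.54 and 4.13 in glucose. Its sugar difference was the one furthest above 0 among the 56 tested genes (cultured mean 1.12 with an unadjusted p = 0.030, adjusted p = 0.46). The glucose 48 h array lay below the floor, so that mean is a bound. Sucrose was already 0.74 above glucose at 0 h, and 0.59 above it at 24 h. XTH29 was at least 1.73 above glucose in sucrose at 24 h, where its glucose array lay below the floor. At 0 h it had been 1.1 above glucose.

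**Figure D3:**
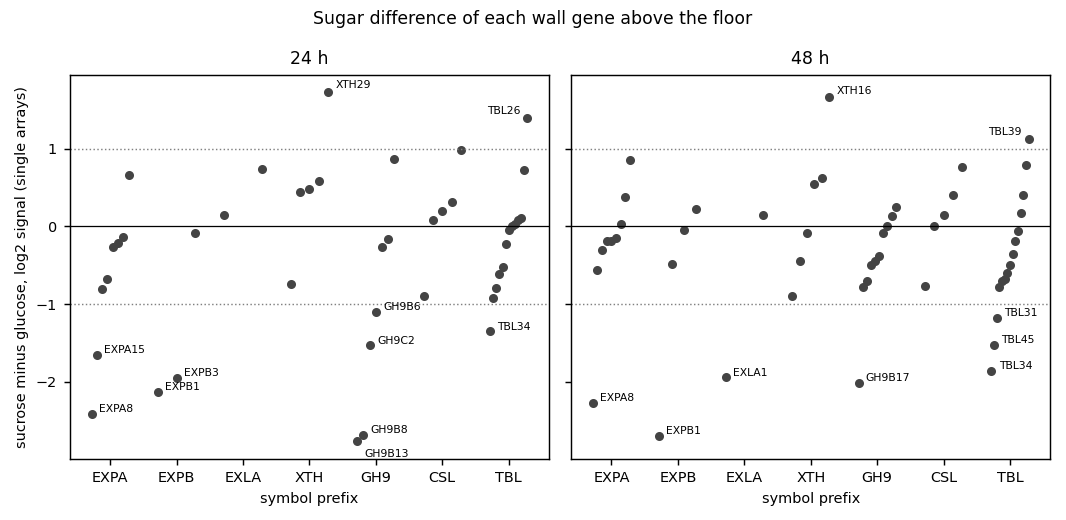
Sucrose minus glucose difference in scaled log2 signal between single arrays (vertical axis) of each wall gene above the floor on at least 1 of the arrays compared, by symbol prefix (horizontal axis), at 24 h and at 48 h; a signal below the floor is set to it, and dotted lines mark a 2-fold difference. At 24 h 9 of 43 genes lie below the lower line, among them GH9B13 at -2.76 and EXPA8 at -2.41, and at 48 h 7 of 51 do.

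Several of the falls came from genes of low signal, where the arrays' own background matters. The array carries 23 background control probe sets that match no plant sequence, grouped by the number of G and C bases. Those with 15 G and C bases read 5.07 and 5.22 at 24 h (sucrose and glucose), 5.02 and 5.79 at 48 h, and 6.16 and 6.80 at 0 h. Those with 10 read 2.14 and 2.19 at 24 h, 2.14 and 2.42 at 48 h, and 2.77 and 2.74 at 0 h. Those with 20 read 7.24 and 7.43 at 24 h, 7.12 and 8.06 at 48 h, and 8.44 and 9.17 at 0 h, a change in culture of -1.11 to -1.75. Background was thus higher on both 0 h arrays than on any cultured array, at 10, 15 and 20 G and C bases alike. Among the genes that fell, XTH18, GH9B10, EXPA24 and TBL42 were below 7 on the 0 h arrays and below the floor on both 24 h arrays. With a floor at the 50th percentile XTH18 and GH9B10 were not called. EXPA24 and TBL42 had fewer than 2 arrays above that floor, so they were not tested there. EXPA24 (AT5G39310) was at least 1.99-fold lower at 24 h, and TBL42 (AT1G78710) at least 1.48-fold lower at both times (adjusted p = 0.036 for EXPA24 and 0.028 for TBL42 at 24 h). The part of the higher 0 h background in these falls was not tested, since the G and C content of their probes is not known here. EXPA20 and CSLD2 fell at a signal of 9.12 or more on the 0 h arrays, and EXPA16 at 7.98 and 8.58, against 8.44 and 9.17 for the controls with 20 G and C bases on the same arrays.

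**Figure D4:**
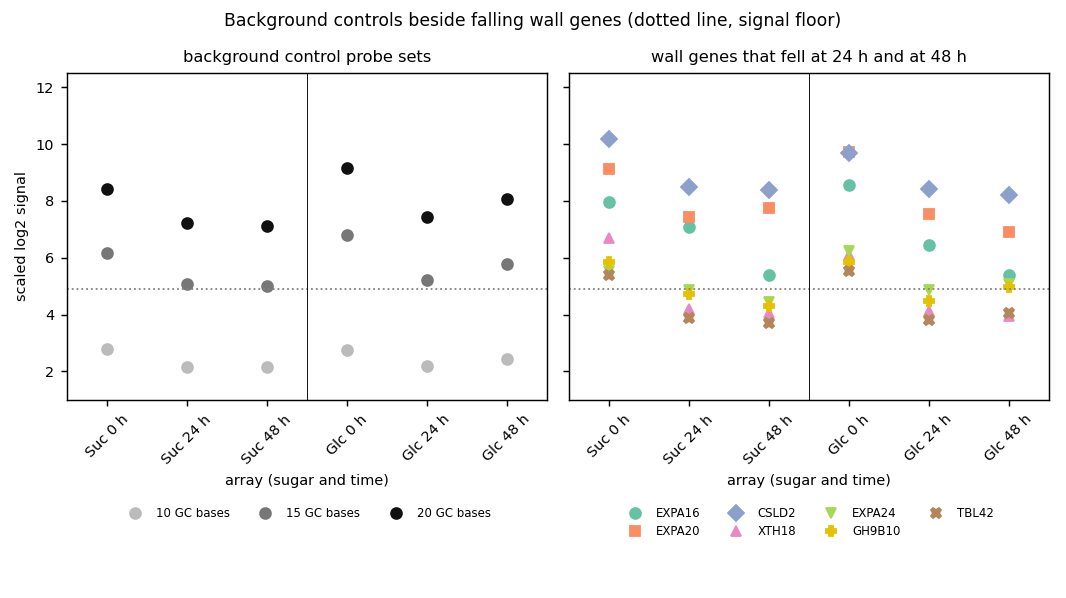
Scaled log2 signal (vertical axis) on each array (horizontal axis) of the background control probe sets with 10, 15 and 20 G and C bases, and of the 7 wall genes that fell at both 24 h and 48 h, with the floor dotted; each point is 1 array. The controls read higher on both 0 h arrays than on the 4 cultured arrays, and CSLD2, EXPA20 and EXPA16 stand well above the floor at 0 h, while XTH18, GH9B10, EXPA24 and TBL42 lie between 5.39 and 6.71 there.

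The test of time leans on few arrays, for the wall genes and for all probe sets. At 24 h, 0 wall genes were called higher when the glucose 0 h, the sucrose 0 h or the glucose 24 h array was left out, 4 when the sucrose 24 h array was, and 10 when one of the 48 h arrays was. At 48 h, 0 were called higher when one of the 48 h arrays was left out, 1 (CSLC5) when one of the 0 h arrays was, and 14 when one of the 24 h arrays was. Fewer falls were called with any 1 array left out than with all arrays, at 24 h and at 48 h, as over all probe sets. Some of these genes were not called lower in the full fit. Such were TBL41 without the glucose 0 h array, and EXPB2, XTH26, GH9B14 and GH9C3 without the sucrose 0 h array. Over all 25826 probe sets the count called higher at 24 h was 14 with the glucose 0 h array left out, 48 with the sucrose 0 h array, 0 with the glucose 24 h array and 1518 with the sucrose 24 h array, against 6248 with all arrays. At 48 h it was 0 with one of the 48 h arrays left out, against 5715. In each of these fits a single array stands for a group, with its spread taken from the others.

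Single differences moved as well. EXPB3 gave 4.62 with the sucrose and 2.45 with the glucose 24 h array left out, and 2.31 with the sucrose and 4.48 with the glucose 48 h array left out. GH9B8 gave 3.65 with the sucrose and 1.42 with the glucose 24 h array left out, and 2.97 with the sucrose and 5.19 with the glucose 48 h array left out. In the same way EXPA4 ranged over 3.31 to 4.49 at 24 h and 3.83 to 5.02 at 48 h, and TBL39 over 1.92 to 3.29 and 2.73 to 4.09, with the array of the same time left out in each case. TBL26 at 24 h was 2.96 without the sucrose and 1.61 without the glucose 0 h array, and EXLA1 at 24 h was -2.94 without the sucrose and -0.85 without the glucose 24 h array. For every gene called in the full fit, the cultured and the 0 h arrays did not overlap; over all 56 tested genes that was so for 39 at 24 h (69.6%, against 77.7% of all tested probe sets) and for 42 at 48 h (75%, against 70.2%). Beside these stand 24.2% of probe sets called higher and 19.8% lower at 24 h, and 22.1% and 19.9% at 48 h.

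All 80 genes matched a locus in the RefSeq gene table, 14 on chromosome 1, 21 on chromosome 2, 12 on chromosome 3, 23 on chromosome 4 and 10 on chromosome 5. In all, 18 of them stand in 6 runs of neighbours, with at most 1 coding gene between members. EXPA21, EXPA22, EXPA23, EXPA25 and EXPA24 form the longest run, on chromosome 5. Of these, EXPA24 fell at both times, but 3 of 8 alternative settings kept that call at 24 h and 2 of 8 at 48 h. EXPA23 and EXPA25 did not pass the test, and EXPA21 and EXPA22 were not tested. EXLA3, next to EXLA1, was below the floor on all arrays, as were GH9B16, next to GH9B17, and TBL30, next to TBL28. Related genes of a run can share probes on an array, which was not tested here.

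Of 57 list entries for other genes of wall building (cellulose synthesis, xyloglucan synthesis, pectin and nucleotide sugars), 3 had a named probe set and 1 was tested. That gene, COB (AT5G60920), a GPI-anchored protein that orients cellulose, gave 11.28, 11.71 and 11.89 in sucrose and 11.23, 11.90 and 12.13 in glucose. It rose by 0.55 ± 0.14 at 24 h (adjusted p = 0.027) and by 0.76 ± 0.14 at 48 h (adjusted p = 0.011). The other 2, PME35 and ADPG1, both of pectin modification, were not tested.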

How the data were processed

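RNA of 6 arrays was amplified, biotin-labelled and hybridised, per the labels' protocols. Each array's deposited column holds 1 log2 signal for every probe set, made by the authors with GCOS per the submitters' processing notes; version, background correction and normalization stand as not given in the sources used here, and the log base was read from the values. Amplification of small RNA amounts can shift relative levels. Of 38408 probe sets, 98 controls stayed out of all tests. Arrays were scaled to a common 2% trimmed mean and raised to the floor. The filter kept 25826 probe sets with at least 2 arrays above the floor, among them 10662 with 1 gene. Genes were named from the platform's probe table through the RefSeq table of TAIR10.1.

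The test, limma 3.58.1 (R 4.3.3; intensity trend, two-sided), fitted a mean for each of the 3 times and 1 sugar term for cultured arrays. Its 2 residual degrees of freedom rest on treating the 0 h pair as replicates and the sugar difference as constant, and the prior added 3.24. The second fit gave each of the 4 cultured arrays its own mean, which leaves 1, from the 0 h pair. Nothing says whether the arrays hold separate cultures. In the first fit the measured spread comes from the sugar difference at 0 h and from its change between the cultured times. Its p-values therefore do not separate a sugar response that changes with time from array-to-array spread, possibly technical. For XTH19, GH9B6, GH9B8 and OPS both 0 h arrays lay below the floor, so the 0 h pair gave no spread. For XTH18 and TBL42 all 4 cultured arrays did, so the cultured arrays gave none. The SEs and p-values of these genes may be too small for that reason. The number of arrays limits the precision. Alternatives were other scalings, floors and filters, no intensity trend, the mean of a gene's probe sets, leaving out each array and, added after the data were seen, sugar as a block over all 6 arrays.

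Members and lists were chosen with earlier results of these data known. Values on all arrays are given for up to 5 members of a prefix with the largest differences from 0 h and for the member with the largest sugar difference; EXPA7, EXPA9, EXPA24, EXPA25, GH9B7, GH9B10, GH9B17, TBL37, TBL42 and TBL45 were added after their values were seen.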

Additional observations from a re-analysis of the deposited data

Results flagged for a closer look

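Of 31 wall genes above the floor on all 4 arrays compared, 7 had opposite signs in the sugars at 48 h against 0 h; over all probe sets it was 3250 of 18435. In 3 of the 7 at least one sugar's change was 2-fold or more. EXPB1 changed by -0.73 in sucrose and by 1.52 in glucose (log2). EXLA1 changed by -2.13 in sucrose and by 0.56 in glucose. GH9B17 changed by -0.20 in sucrose and by 1.99 in glucose. Each value is 1 array against 1, and these differences between changes were not tested. The sugar difference at 48 h itself, in the second fit, had an adjusted p of 0.23 for EXPB1, 0.37 for EXLA1 and 0.16 for GH9B17.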

How the results depend on the processing

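With the floor at the 30th percentile (65 genes tested) 15 wall genes were called lower at 24 h and 14 at 48 h, at the 50th (41 tested) 3 and 4, with no floor or filter (80 tested) 9 and 10, and without the intensity trend 5 and 7, against 8 and 9 of 56 as reported. Over all probe sets falls at 24 h numbered 5601, 4536, 5722 and 4833, against 5120. At 48 h they numbered 5542, 4591, 5507 and 4875, against 5137. Probe sets tested were 29547, 22131, 38310 and 25826, against 25826. At the 30th percentile all 13 and 16 rises were called again, at the 50th 11 and 15 of them. Genes at least 2-fold apart with no floor numbered 26 in sucrose and 42 in glucose at 24 h, 38 in sucrose at 48 h, and 14 between the sugars at 48 h, against 14, 27, 23 and 9. The matching counts over all probe sets were not made with no floor. Left unscaled, the median of all probe sets was 0.36 at 24 h and 0.28 at 48 h, against 0.10 and 0.13. Of 53 wall genes tested unscaled, 16 were called higher and 6 lower at 24 h. Over all 25812 probe sets tested unscaled, 8019 were called higher and 3881 lower at 24 h. Leaving out 1 array at a time gave fewer rises and fewer falls at 24 h and at 48 h, some of them in genes not called in the full fit. It called none for the comparisons of 48 h with 24 h and of the sugars. With the mean of a gene's probe sets only EXPA20 lost its calls. Sugar as a block over all 6 arrays was added after the data were seen. With it 12 wall genes rose and 9 fell at 24 h, and 16 and 12 at 48 h. Over all 25826 probe sets that fit called 6379 higher and 5362 lower at 24 h, and 5879 and 5410 at 48 h. Of the wall genes called, 11, 7, 15 and 9 were called before. EXPA8 (both times), EXLA1 and TBL24 (24 h) lost calls, and CSLC04 and GH9C2 gained one at 48 h (adjusted p = 0.036 and 0.026). At the 50th percentile floor GH9B6 and GH9B8 at 24 h, XTH19 and EXPA9 at 48 h, and XTH18 and GH9B10 at both times were not called. EXPA24 and TBL42 were not tested there, with fewer than 2 arrays above that floor. The causes were not tested.

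Directions turned only for differences not past the test: CSLC12 at 48 h to 0.17 unscaled and 0 with the higher floor, CSLC6 at 48 h to 0.09 unscaled, EXPB1 at 24 h to 0.26 unscaled and 0.02 with the higher floor, and XTH29 at 24 h to -0.07 with the lower floor or none. Leaving out 1 array gave CSLC12 -0.02 to 0.53 at 24 h and -0.29 to 0.26 at 48 h, CSLC6 -0.28 to 0.47 and -0.48 to 0.26, EXLA2 -0.73 to 0.08 and -0.68 to 0.13, XTH16 -0.04 to 1.03 and -0.15 to 0.92, and XTH29 -0.79 to 1.03 and -1.58 to 0.23. It gave EXPB1 -0.31 to 0.25 and GH9B13 -0.14 to 2.76 at 24 h, and EXLA1 -1.83 to 0.26 and TBL26 -0.95 to 0.39 at 48 h. Arrays were paired by sugar only in the fit with sugar as a block, and the labels carry no replicate numbers for another pairing. Promoter motifs, planned, were not run.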

Other observations

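Of the untested wall genes, 6 were above the floor on 1 array alone, and in 3 of them that array was glucose at 48 h. How probe sets of this kind divide among the arrays over the whole platform was not counted. XTH20, linked like XTH19 with cell proliferation in wounded stems, gave 2.11, 1.25 and 2.82 at 0, 24 and 48 h in sucrose and 1.69, 2.94 and 5.80 in glucose. GH9B5 gave 5.40 on that array and TBL31, of xylan acetylation, 6.08, with the sucrose 48 h arrays at 4.69 and 4.41. For the others the array was sucrose at 0 h for CSLA03 (5.20) and glucose at 0 h for EXPA22 (5.61) and TBL20 (5.51). The xylem vessel marker IRX15 also read highest on the 48 h glucose array, at 6.86, and a link with the wall genes was not tested. The 6 wall genes were named after their values were seen, and none was tested.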
